A study of Homo sapiens with 15 samples.

Results

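Glutathione S-transferases (GSTs) made up 20 of the 25 genes that a symbol rule picked from 14884 named symbols on 15 arrays of the Caco-2 line, which comes from a human colon carcinoma and resembles enterocytes once confluent. The rule took symbols that start with CYP and a digit, UGT, SULT, GST, ALDH or AKR, or with ABCA, ABCB, ABCC, ABCD or ABCG and a digit. Beside the GSTs it held ALDH2, UGT8, the pseudogene ABCA15P and the antisense RNAs ABCC5-AS1 and ALDH1L1-AS2. Each of the 25 symbols had 1 row, and 2 of the 20 GST symbols, GSTM2P1 and GSTTP2, are pseudogenes. No row used here carried a symbol of a cytochrome P450, a sulfotransferase, an aldo-keto reductase, a UGT1A or UGT2B glucuronosyltransferase or a protein-coding ABC transporter gene, so these families, the enzymes that conjugate resveratrol among them, were not analysed here. The name "drug-metabolizing enzymes and ABC transporters" therefore fits these members only as far as the GSTs and ALDH2.

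There were 3 groups of 5 arrays each. The LPS+RSV cells received 50 µM trans-resveratrol, a plant polyphenol dissolved in ethanol, 1 h before lipopolysaccharide (LPS, bacterial endotoxin, here of an E. coli K12 strain) at 1 µg/mL. The LPS cells received the same LPS, for 48 h, without resveratrol. The control cells were untreated, and the labels do not say whether LPS or control cells were given ethanol. Cells of 1 line were used 15 to 19 days after seeding, and the day of each array is not given. The labels number the replicates without saying that they came from separate cultures, so p-values measure the spread between arrays, which may be technical.

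GSTs join the tripeptide glutathione to electrophilic drugs, carcinogens and lipid peroxidation products, and the conjugates are then exported from the cell. The cytosolic enzymes fall into classes named alpha, mu, pi, theta and omega, and a kappa enzyme lies in mitochondria and peroxisomes. In the small intestine alpha and pi enzymes are prominent, and several GST genes respond to the transcription factor NRF2, which electrophiles and oxidants activate. ALDH2 is the mitochondrial aldehyde dehydrogenase that oxidises acetaldehyde, and UGT8 adds galactose to ceramide rather than glucuronic acid to drugs.

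Values are log2 expression, 1 per array and probe set, and levels of different genes are not compared. Array medians lay between 5.49 and 5.54, and pairs of arrays correlated between 0.922 and 0.994 across 11804 tested genes. LPS+RSV replicate 1 had the lowest mean correlation with the others, 0.946. LPS replicates 1 and 2 stood apart for the steroid dehydrogenase gene HSD17B2, at 9.85 and 9.79 where the 3 others of that group lay between 8.60 and 8.88. RNA of whole cultures was measured, so fewer cells of a kind and less RNA per cell cannot be told apart. Of 13 enterocyte and epithelial markers named here, all 13 passed the filter on dim genes, the sucrase gene SI, the villin gene VIL1 and EPCAM among them. The fibroblast marker DCN, at a mean of 3.30, did not pass, while 4 other fibroblast or immune markers, CD68, LYZ, THY1 and PECAM1, did. A gene passed the filter when at least 5 arrays held it above their 40th percentile. Of the 25 members 20 passed: 18 GST symbols, ALDH2 and UGT8. The 5 others were ABCA15P, ABCC5-AS1, ALDH1L1-AS2, GSTM5 and GSTTP2, whose means over all arrays lay between 4.10 and 4.84. GSTM5 was above the percentile in 2 arrays, and the other 4 in 0 arrays. GSTM5, a mu gene, averaged 4.83 ± 0.09 in LPS+RSV, 4.83 ± 0.26 in LPS and 4.86 ± 0.20 in control (SD, n = 5 each). Of the members tested, GSTA3 was above it in 8 arrays and GSTT4 in 5, so these 2 lie near the limit, and the 18 others were above it in all 15.

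**Figure D1:**
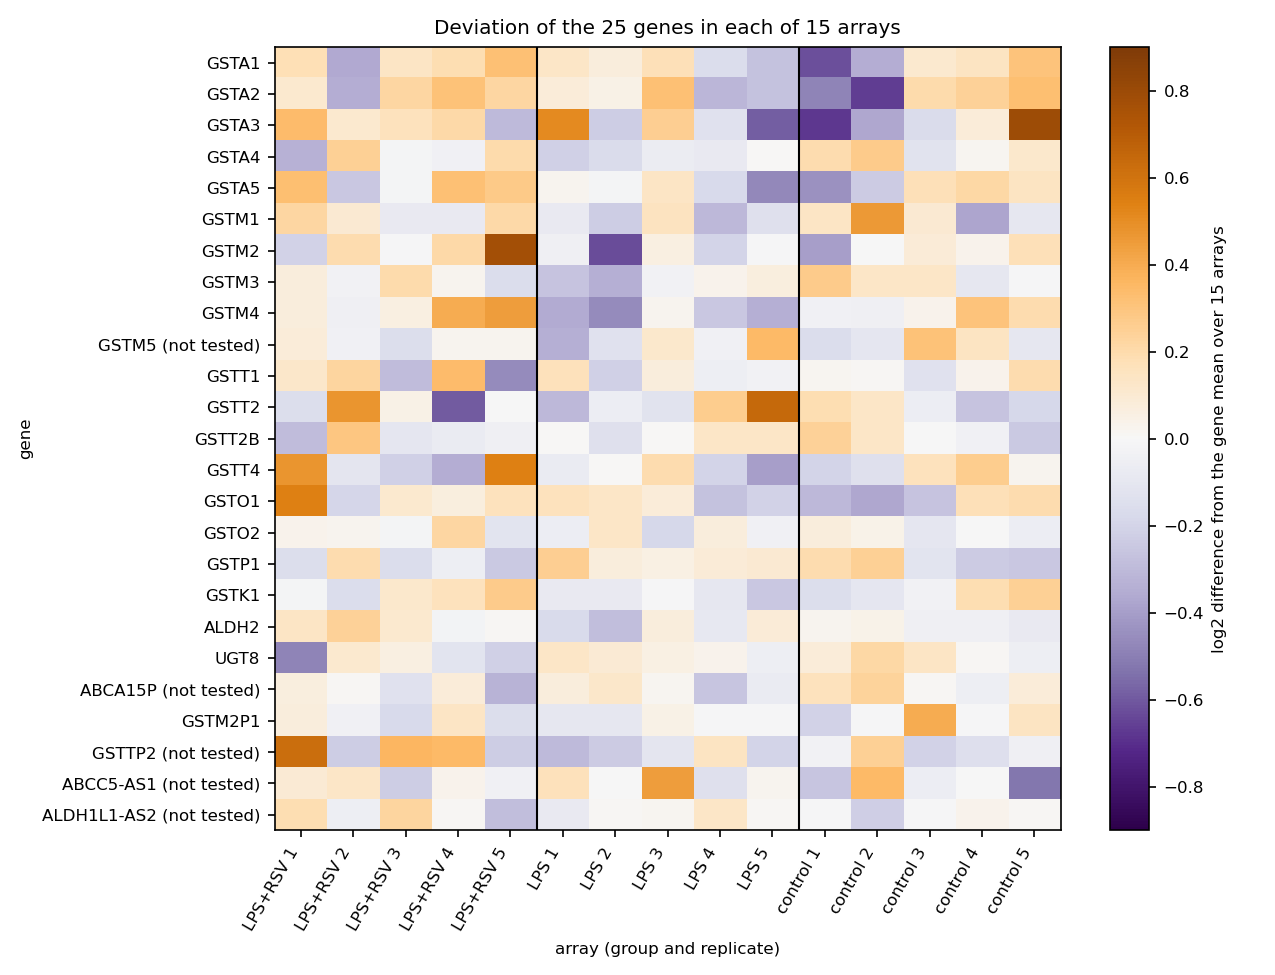
Difference of each gene's log2 value from its own mean over 15 arrays, for all 25 genes (rows, by class) in each array (columns: 5 LPS+RSV, 5 LPS and 5 control arrays). GSTM4 was low in 4 of 5 LPS arrays, and GSTA1, GSTA2 and GSTA5 were low together in LPS+RSV replicate 2, LPS replicates 4 and 5 and control replicates 1 and 2.

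The mu class enzyme GSTM4, which lies among the other mu genes, had the lowest p of the members in both LPS comparisons, and its promoter is printed for that reason. The promoters, from RefSeq on GRCh38.p14, span 250 bases before to 50 after the annotated start, and 18 of the 25 members matched an entry. In the GSTM4 promoter (chr1:109655849-109656148, plus strand) the capitals mark the core of the xenobiotic response element, which the dioxin receptor AHR with its partner ARNT can bind.
GSTM4: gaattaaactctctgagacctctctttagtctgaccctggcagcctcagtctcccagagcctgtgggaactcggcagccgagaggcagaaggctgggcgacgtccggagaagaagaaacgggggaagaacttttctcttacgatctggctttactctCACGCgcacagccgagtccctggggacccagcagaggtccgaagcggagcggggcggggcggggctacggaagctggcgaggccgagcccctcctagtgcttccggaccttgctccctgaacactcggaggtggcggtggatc
The core was searched as GCGTG on both strands. It was found in 36.5% of 35116 promoters of the same length, and 5 of the 18 members held it, so the match is a description and no site is inferred from it.

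GSTM4 stood at 7.10, 7.00, 7.48, 7.21 and 7.12 in the LPS arrays, against 7.42, 7.41, 7.49, 7.76 and 7.65 in the control arrays. Only LPS replicate 3 reached into the control range. The means were 7.18 ± 0.18 in LPS and 7.55 ± 0.15 in control (SD, n = 5 each), a log2 change of -0.37 ± 0.11 (SE, 95% confidence interval -0.61 to -0.13, adjusted p = 0.356, limma over 11804 genes), which did not pass. In the LPS+RSV arrays GSTM4 stood at 7.53, 7.41, 7.52, 7.86 and 7.90. Here too LPS replicate 3 was the only LPS array inside the range of the other group. LPS+RSV averaged 7.65 ± 0.22 and lay 0.46 ± 0.11 above LPS (interval 0.22 to 0.70, adjusted p = 0.106, limma), which did not pass. Left out 1 at a time, 2 arrays changed this call: without LPS replicate 3 the limma adjusted p was 0.0436, and without LPS+RSV replicate 2 it was 0.0468. Without LPS replicates 1 and 2, which stood at 7.10 and 7.00, the log2 change was 0.38 (limma adjusted p = 0.338), and that of LPS against control was -0.28. LPS+RSV against control differed by 0.10 ± 0.11 (interval -0.14 to 0.34). Both LPS comparisons share the LPS arrays, so opposite signs in them are not independent.

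LPS was set against control to see how endotoxin altered these detoxification genes. Of the 20 members tested, 0 passed in limma at an adjusted p under 0.05, where 0.0254% of all genes passed. At an unadjusted limma p under 0.05, 1 member, GSTM4, was lower and 0 were higher, against 3.26% and 4.62% of all genes (7.88% in both directions). Without 1 array at a time, that total of 1 became 2 without LPS replicate 4 or 5 or control replicate 3, and 3 without control replicate 4. It was 0 without LPS replicates 1 and 2 together. The members' median log2 change was -0.05, against 0.01 over all genes, with 7 higher and 13 lower. No member had all arrays of LPS beyond all of control (0 of 20), which 2.21% of genes did (1.08% higher, 1.13% lower).

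By class, the 4 mu enzymes tested were all lower in LPS, between -0.37 and -0.14, though they lie side by side and share sequence. GSTM3 differed by -0.19 ± 0.10, and GSTM1, which is often deleted in people, by -0.17 ± 0.13. GSTM2 stood at 6.76, 6.18, 6.87, 6.61 and 6.80 in LPS, against 6.41, 6.80, 6.90, 6.84 and 6.98 in control, and differed by -0.14 ± 0.17. Without LPS replicates 1 and 2 the differences were -0.06 for GSTM3 and -0.03 for GSTM2, and without control replicate 2 that of GSTM1 was -0.06. The alpha class split: GSTA4, whose enzyme clears the lipid peroxidation product 4-hydroxynonenal, differed by -0.20 ± 0.10, while GSTA1 differed by 0.07 ± 0.17. GSTP1, the pi enzyme, differed by 0.15 ± 0.11 and GSTK1, the kappa enzyme, by -0.13 ± 0.09. The theta genes lay between -0.12 and 0.12. For GSTA1 the 95% interval ran from -0.28 to 0.42. The pseudogene GSTM2P1 differed by -0.09 ± 0.10, GSTO1 by 0.09 ± 0.14 and GSTO2, the other omega gene, by -0.01 ± 0.08.

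The effect of resveratrol given before endotoxin was read from LPS+RSV against LPS. Again 0 of 20 members passed in limma, where 0.0424% of all genes did. At an unadjusted limma p under 0.05, 3 members were higher, GSTM4, ALDH2 and GSTM2, against 8.08% of all genes. None was lower (0 members), against 10.5% of all genes (18.6% in both directions). The total of 3 was 1 without LPS replicate 1, 2 or 4 and also without LPS replicates 1 and 2 together, and it was 5 without LPS+RSV replicate 2. The median log2 change of the members was 0.13, against 0.01 over all genes, with 15 higher and 5 lower. The 2 groups of arrays were apart for 0 members, against 2.80% of all genes (1.41% higher, 1.39% lower).

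ALDH2 stood at 9.31, 9.42, 9.29, 9.15 and 9.18 in LPS+RSV, against 9.00, 8.89, 9.25, 9.08 and 9.26 in LPS. LPS replicates 3 and 5 overlapped with LPS+RSV, and LPS replicates 1 and 2 were lowest. The log2 change was 0.17 ± 0.08 (SE, adjusted p = 0.254, limma), and without LPS replicates 1 and 2 it was 0.07. Resveratrol was given in ethanol, whose metabolism ALDH2 completes, and a part of the vehicle in this difference was not tested.

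GSTM2 stood at 6.60, 7.00, 6.80, 7.02 and 7.58 in LPS+RSV, against 6.76, 6.18, 6.87, 6.61 and 6.80 in LPS. The groups overlapped, with LPS+RSV replicate 5 highest and LPS replicate 2 lowest of all 15 arrays. The change was 0.36 ± 0.17 (adjusted p = 0.266, limma), and without LPS+RSV replicate 5 it was 0.21. The 2 other mu genes tested, GSTM1 and GSTM3, were 0.19 ± 0.13 and 0.13 ± 0.10 higher. Without LPS replicates 1 and 2 the difference of GSTM3 was -0.0005. All 5 alpha genes were higher as well, between 0.10 and 0.23, none at an unadjusted limma p under 0.05 (0 genes). This direction turned for 4 of them with a cell cycle score of the arrays as a covariate: GSTA1 at -0.27, GSTA2 at -0.28, GSTA3 at -0.23 and GSTA5 at -0.08 were then lower in LPS+RSV, and GSTA4 at 0.21 was higher. Without LPS replicate 5 the difference of GSTA5 was 0.14, against 0.23 with all arrays. GSTK1 stood at 9.27, 9.13, 9.40, 9.45 and 9.56 in LPS+RSV, against 9.21, 9.21, 9.28, 9.19 and 9.04 in LPS, a change of 0.18 ± 0.09 (adjusted p = 0.325, limma).

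On the lower side, GSTP1 stood at 11.37, 11.71, 11.36, 11.47 and 11.28 in LPS+RSV, against 11.78, 11.60, 11.57, 11.61 and 11.62 in LPS. Of the LPS+RSV arrays 4 lay below every LPS array, and replicate 2 lay above all LPS arrays but replicate 1. The change was -0.20 ± 0.11 (adjusted p = 0.320, limma). UGT8, the ceramide galactosyltransferase gene, stood at 10.03, 10.62, 10.57, 10.40 and 10.30 in LPS+RSV, against 10.64, 10.61, 10.56, 10.55 and 10.46 in LPS. LPS+RSV replicate 1 was the lowest of all 15 arrays, and that array also correlated least with the rest. The change was -0.18 ± 0.10 (adjusted p = 0.333, limma). Without LPS+RSV replicate 1 it was -0.09.

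LPS+RSV against control, which shares its arrays with the other comparisons, had 0 of 20 members called, as in all genes (0%). This fit did not pair arrays, though replicates 2 to 5 of the groups were alike for some genes. GSTA1 stood at 11.74, 12.24, 12.29 and 12.43 in these LPS+RSV arrays, against 11.76, 12.22, 12.25 and 12.41 in control. For such genes the standard errors include spread that same-numbered arrays share, and a fit pairing only these groups was not run. Not every member matched by number. In replicate 5 GSTA3 stood at 4.88 in LPS+RSV and 5.97 in control, and GSTM2 at 7.58 and 6.98. At an unadjusted limma p under 0.05 there were 0 members, against 10.5% of all genes (4.09% higher, 6.40% lower). That count was 1 without LPS+RSV replicate 3 or control replicate 4, and 2 without LPS+RSV replicate 2 or control replicate 5. UGT8 came nearest at -0.20 ± 0.10 (interval -0.41 to 0.00, adjusted p = 0.479, limma), with control arrays at 10.59, 10.72, 10.65, 10.52 and 10.46. Without LPS+RSV replicate 1 the difference of UGT8 was -0.11. Next was GSTO1, an omega enzyme with thiol transferase activity, at 0.25 ± 0.14, which stood at 8.01 in LPS+RSV replicate 1 and between 7.27 and 7.62 in the 4 others, against 7.09 to 7.66 in control. Without LPS+RSV replicate 1 that of GSTO1 was 0.15. The median of the members was 0.04, against 0.02 over all genes. Groups were apart for 0 members, against 1.72% of genes (0.627% higher, 1.09% lower).

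**Figure D2:**
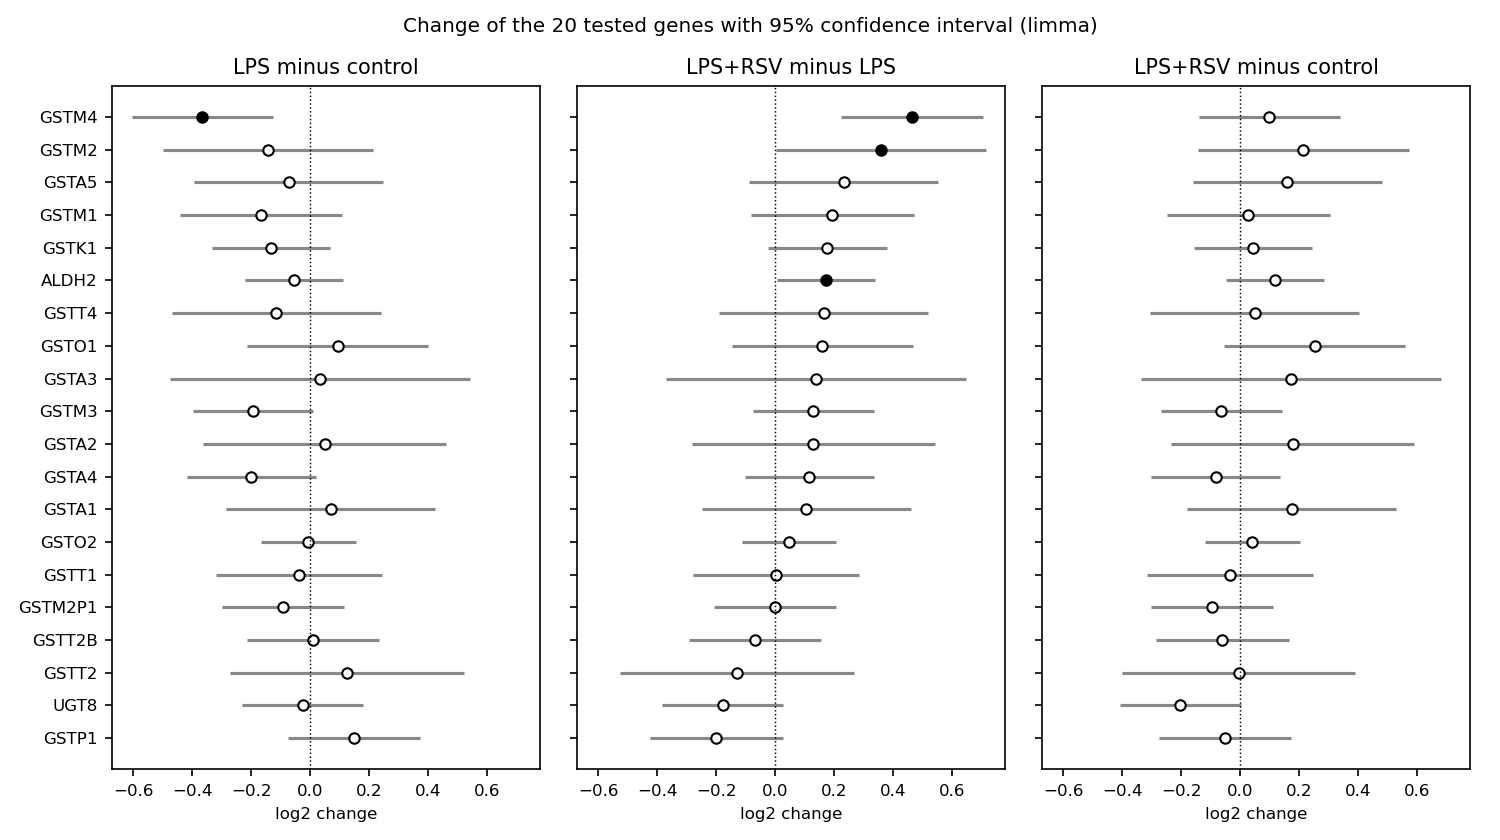
Log2 change of the 20 tested genes with 95% confidence interval (limma, 5 arrays per group) for LPS minus control, LPS+RSV minus LPS and LPS+RSV minus control; filled points have an unadjusted p under 0.05. Filled points are GSTM4 in the first panel and GSTM4, GSTM2 and ALDH2 in the second, and no gene passed after adjustment over 11804 genes.

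**Figure D3:**
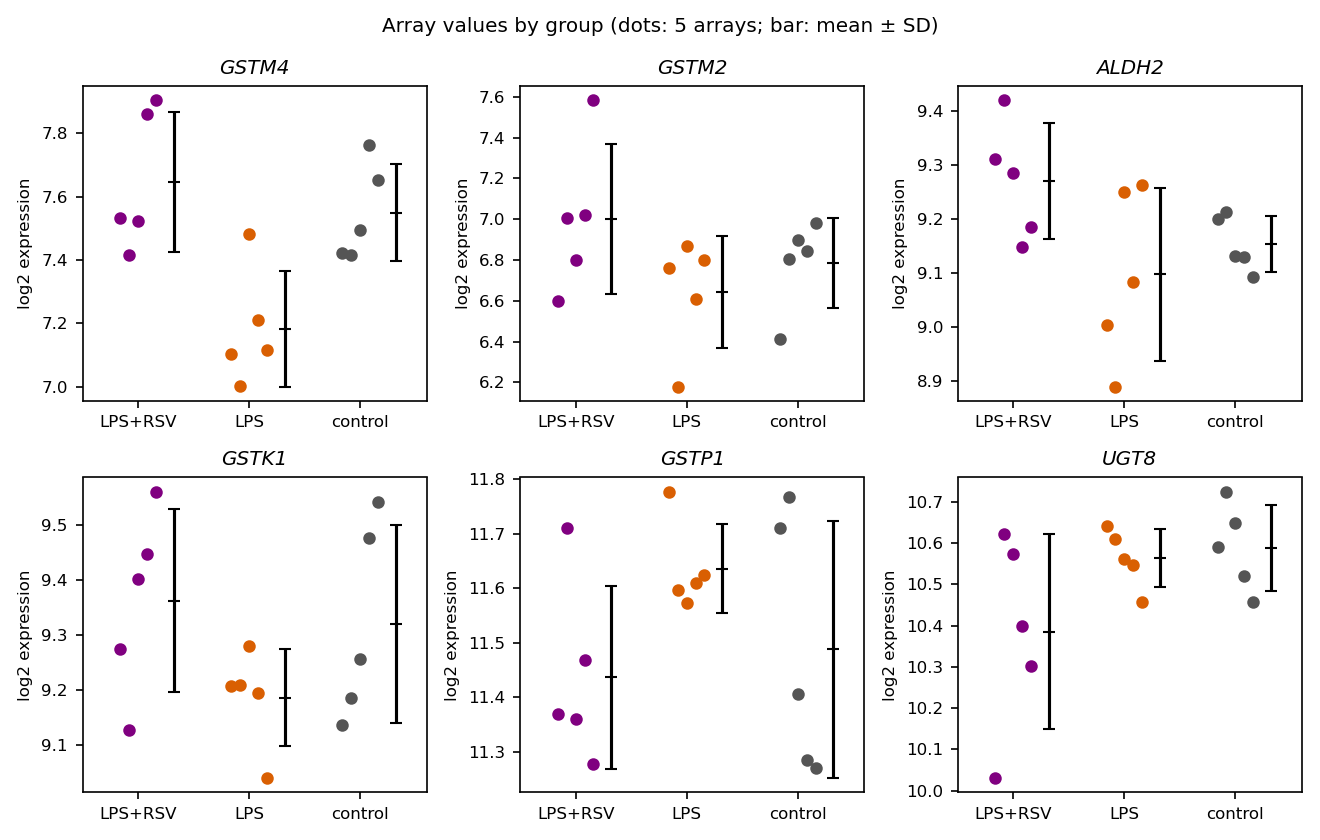
Log2 expression of GSTM4, GSTM2, ALDH2, GSTK1, GSTP1 and UGT8 in each array of the LPS+RSV, LPS and control groups (dots in order of replicate number), with mean ± SD (n = 5). The vertical axes differ and do not start at 0; the groups of arrays overlap for each gene, and 1 LPS array of GSTM4, at 7.48, lies in the range of the other 2 groups.

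Members differed in how far their arrays scattered. The widest spread around the group means was that of GSTA3, with a pooled SD of 0.43, at the 97.1 percentile of all tested genes. GSTA3, which encodes an enzyme with steroid isomerase activity, spanned 4.88 to 5.52 in LPS+RSV arrays, 4.59 to 5.69 in LPS arrays and 4.50 to 5.97 in control arrays. GSTA2 followed with an SD of 0.34, and GSTA1 had 0.29. ALDH2 and GSTO2 were the steadiest of the tested members, at 0.12 and 0.11.

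GSTA1 and GSTA2, the main alpha enzymes of the intestine, moved together from array to array, and their promoters are close in sequence. These promoters on chromosome 6 (GSTA1 at chr6:52803767-52804066 and GSTA2 at chr6:52763426-52763725, both on the minus strand) are printed to show this. They were identical at 288 of 300 bases, 96.0%, and the capitals mark the 12 bases that differ.
GSTA1: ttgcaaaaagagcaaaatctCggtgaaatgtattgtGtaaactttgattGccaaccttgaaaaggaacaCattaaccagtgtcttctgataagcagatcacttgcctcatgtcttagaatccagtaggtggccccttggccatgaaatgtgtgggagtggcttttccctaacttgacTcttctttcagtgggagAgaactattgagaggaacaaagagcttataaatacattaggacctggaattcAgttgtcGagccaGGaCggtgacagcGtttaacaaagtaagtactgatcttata
GSTA2: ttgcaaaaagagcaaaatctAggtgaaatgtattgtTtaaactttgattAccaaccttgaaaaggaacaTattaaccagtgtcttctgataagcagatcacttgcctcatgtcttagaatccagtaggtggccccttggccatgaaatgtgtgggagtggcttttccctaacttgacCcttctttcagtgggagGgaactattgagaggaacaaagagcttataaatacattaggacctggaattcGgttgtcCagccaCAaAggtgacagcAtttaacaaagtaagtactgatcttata
Neither held the xenobiotic response element core, nor the antioxidant response element core searched as TGACNNNGC on both strands, nor the AP-1 site searched as TGANTCA. The promoters of GSTA3 and GSTA5 were not aligned with these, and a part of promoter sequence in the shared movement was not tested. Transcript and probe sequences were not compared. Probe sets of close gene copies may share probes, so the values of GSTA1, GSTA2, GSTA3 and GSTA5 are not certain to come from separate genes. The same holds for the mu genes with GSTM2P1, and for GSTT2 with GSTT2B.

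GSTA1 stood at 12.28, 11.74, 12.24, 12.29 and 12.43 in LPS+RSV, at 12.23, 12.18, 12.28, 11.94 and 11.83 in LPS, and at 11.49, 11.76, 12.22, 12.25 and 12.41 in control. The groups overlapped, and 5 arrays stood apart below the 10 others: LPS+RSV replicate 2, LPS replicates 4 and 5, and control replicates 1 and 2. GSTA2 stood at 12.97, 12.52, 13.08, 13.18 and 13.09 in LPS+RSV, at 12.95, 12.91, 13.19, 12.56 and 12.59 in LPS, and at 12.38, 12.20, 13.07, 13.11 and 13.19 in control. The lowest 5 arrays were those of GSTA1. They were also lowest for GSTA5, between 5.45 and 5.73 against 5.90 to 6.24 in the 10 others.

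These 5 arrays had the highest scores for cell cycle genes, a mean deviation over 33 genes of division and DNA replication. The score was -0.54, 0.47, -0.15, -0.40 and -0.88 in LPS+RSV, 0.18, 0.13, -0.02, 0.85 and 0.99 in LPS, and 0.49, 0.45, -0.19, -0.36 and -1.03 in control. The summed level of the 33 genes spanned 236 to 280 in LPS+RSV arrays, 264 to 297 in LPS arrays and 231 to 281 in control arrays. Enterocyte markers moved the other way: their score was -0.22 in LPS+RSV replicate 2, -0.13 and -0.22 in LPS replicates 4 and 5 and -0.17 and -0.20 in control replicates 1 and 2, and -0.11 to 0.26 in the 10 others. Their summed level over 13 genes ran from 112 to 118 in LPS+RSV, 112 to 118 in LPS and 112 to 117 in control. Hepatocyte markers, which Caco-2 cells also express, were between -0.35 and -0.07 in these 5 arrays and between 0.01 and 0.37 in the others. The part of these markers in the GST levels was not tested.

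A limma fit with 3 group means and the cell cycle score, added after the data were seen, gave a slope per unit of score for each gene. Of the 20 members, 7 fell with the score at an adjusted p under 0.05, against 9.49% of all genes, and 3 rose with it, against 13.7% (23.2% in both directions). GSTA1 fell by 0.51 ± 0.06 per unit (SE, adjusted p = 2.27e-05, limma), GSTA2 by 0.56 ± 0.09 (adjusted p = 0.000194) and GSTA5 by 0.43 ± 0.07 (adjusted p = 0.000426). The other falling members were GSTO1 (-0.38 ± 0.08), GSTK1 (-0.24 ± 0.05), GSTA3 (-0.51 ± 0.16) and GSTT4 (-0.34 ± 0.11). GSTP1 rose by 0.24 ± 0.07 (adjusted p = 0.0137, limma), GSTT2 by 0.44 ± 0.11 and GSTT2B by 0.27 ± 0.06. GSTM4 had a slope of -0.21 ± 0.08 (adjusted p = 0.0713, limma), and ALDH2 and UGT8 did not pass.

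Without the 5 arrays of highest score these calls were lost. Among the 10 others 0 members passed in limma, where 0.483% of all genes did, with slopes of -0.24 ± 0.11 for GSTA1 (adjusted p = 0.574), -0.11 ± 0.14 for GSTA2 and 0.15 ± 0.13 for GSTP1, and -0.02 ± 0.23 for GSTT2, whose sign was turned. The slopes of GSTK1 (-0.24 ± 0.14) and GSTT4 (-0.40 ± 0.31) were about as large as with all arrays or larger, though the calls were lost. Those of GSTA3 and GSTO1 were -0.38 ± 0.37 and -0.28 ± 0.21. GSTA5 had -0.13 ± 0.15 and GSTT2B 0.14 ± 0.15. With each of the 15 arrays left out in turn, GSTA1, GSTA2, GSTA5, GSTK1, GSTO1 and GSTT2B passed in all 15 fits. GSTP1 and GSTT2 were lost without LPS+RSV replicate 2 (adjusted p = 0.0719 and 0.0633, limma), while GSTA3 passed in 10 of the fits and GSTT4 in 6. These fits took the arrays as independent. Control and LPS+RSV arrays numbered 2 to 5 were alike in score and GSTA1 level, so leaving 1 of them out kept its match.

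**Figure D4:**
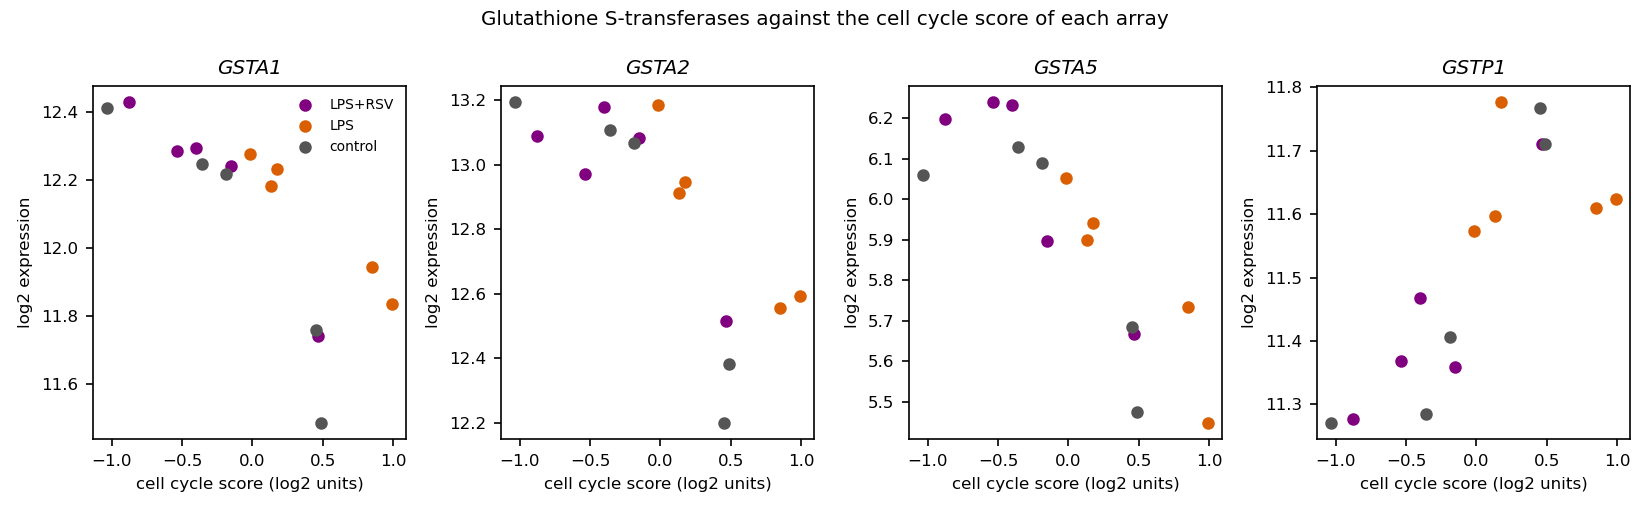
Log2 expression of GSTA1, GSTA2, GSTA5 and GSTP1 (vertical axes, not from 0) against the cell cycle score of each array (horizontal axis, mean log2 deviation over 33 genes), with LPS+RSV, LPS and control arrays coloured. The 5 arrays with scores of 0.45 and more hold the 5 lowest values of GSTA1, GSTA2 and GSTA5, between 11.49 and 11.94 for GSTA1 against 12.18 to 12.43 in the 10 others.

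The score was higher in LPS than in the other groups on average, so it moves with the comparisons themselves. With the score as a covariate, GSTA1 was 0.35 ± 0.08 higher in LPS than in control (adjusted p = 0.0596, limma) and 0.27 ± 0.09 lower in LPS+RSV than in LPS (adjusted p = 0.219, limma), where the fit without it gave 0.07 and 0.10. GSTA2 likewise differed by 0.36 ± 0.11 in LPS against control and by -0.28 ± 0.12 in LPS+RSV against LPS. GSTM4 kept its signs at -0.25 ± 0.10 and 0.31 ± 0.11, and ALDH2 was 0.26 ± 0.08 higher in LPS+RSV than in LPS. Some other differences between LPS+RSV and LPS shrank in that fit, to 0.00 ± 0.07 for GSTK1, -0.02 ± 0.09 for GSTP1, -0.08 ± 0.10 for UGT8 and 0.23 ± 0.19 for GSTM2. Others grew, among them GSTM3 to 0.25 ± 0.10, GSTM1 to 0.24 ± 0.15 and GSTA4 to 0.21 ± 0.11. GSTM3 also differed more in LPS against control, by -0.28 ± 0.09. In that fit 6 members had an unadjusted limma p under 0.05 for LPS against control, where 15.8% of all genes did. For LPS+RSV against LPS there were 5 members, where 11.8% of all genes did. After adjustment 0 members passed in both, where 0.517% of all genes passed for LPS against control and 0.178% for LPS+RSV against LPS.

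GSTP1 had a slope of opposite sign to those of GSTA1, GSTA2, GSTA3 and GSTA5, while the fifth alpha gene, GSTA4, had 0.12 ± 0.08, which did not pass. The GSTP1 promoter (chr11:67583562-67583861, plus strand) is printed beside those of GSTA1 and GSTA2 for that contrast. The capitals mark an antioxidant response element core that overlaps an AP-1 site, the binding sequences of NRF2 and of FOS and JUN.
GSTP1: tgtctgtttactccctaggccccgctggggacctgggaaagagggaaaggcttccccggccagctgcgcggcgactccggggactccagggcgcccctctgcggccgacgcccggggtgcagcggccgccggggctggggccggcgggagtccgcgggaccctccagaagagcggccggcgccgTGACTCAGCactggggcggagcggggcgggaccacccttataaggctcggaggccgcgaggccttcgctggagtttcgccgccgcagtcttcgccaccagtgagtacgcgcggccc
The antioxidant core was found in 13.3% of all promoters and in 6 of the 18 members' promoters, and the AP-1 site in 7.71% and in 2. GSTO1, which fell with the score, held 2 antioxidant cores, and GSTA4 held 1. The promoters of GSTA3, GSTA5, GSTK1 and GSTT4, which also fell, did not hold the core. GSTT2 and GSTT2B, which rose, had no promoter entry. The match is a description, and its part in the slopes was not tested. GSTP1 stood at 11.71, 11.77, 11.41, 11.28 and 11.27 in control, where replicates 1 and 2, with high cell cycle scores, were highest.

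Other genes of the detoxification pathway were read from a list of 67 genes, of which 41 were named here and 37 tested: xenobiotic sensors, suppliers of cofactors and other metabolising enzymes. In limma 0 of 37 passed in each of the 3 comparisons, where 0.0254% of all genes passed in LPS against control, 0.0424% in LPS+RSV against LPS and 0% in LPS+RSV against control. At an unadjusted limma p under 0.05, 5 were higher and 5 lower in LPS against control, where 4.62% and 3.26% of all genes were. In LPS+RSV against LPS 6 were higher and 8 lower, where 8.08% and 10.5% of all genes were. In LPS+RSV against control 1 was higher and 2 lower, where 4.09% and 6.40% of all genes were.

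NFE2L2, which encodes NRF2, stood at 7.19, 7.98, 7.93, 7.85 and 7.59 in LPS+RSV, against 8.27, 8.25, 8.28, 8.34 and 8.31 in LPS, and these groups did not overlap. It also lay 0.31 ± 0.12 above control in LPS, again with no overlap (adjusted p = 0.543, limma). Between LPS+RSV and LPS it differed by -0.58 ± 0.12 (adjusted p = 0.0667, limma). AHR, the dioxin receptor gene, differed by -0.49 ± 0.10 (adjusted p = 0.0687, limma), also with no overlap, and its partner ARNT by 0.25 ± 0.07. Of the 37 genes, 2 others, CYB5R3 and SULF1, were higher in LPS+RSV than in LPS with no overlap. Over all genes 1.41% were apart and higher there, and 1.39% apart and lower. In LPS against control MGST3 was lower with no overlap, where 1.08% of all genes were apart and higher and 1.13% lower. Left out 1 at a time, 2 arrays changed the calls of NFE2L2 and AHR: without LPS replicate 3 the limma adjusted p was 0.0495 and 0.0436, and without LPS+RSV replicate 2 it was 0.0427 for both. Both genes were lowest in LPS+RSV replicate 1, at 7.19 and 9.59, so their differences between LPS+RSV and LPS were smaller without that array. In LPS against control the lowest p-values were those of PAPSS2, which makes the sulfate donor for sulfotransferases, at 0.63 ± 0.19, of ARNT at -0.23 ± 0.07 and of HSD17B2 at 0.82 ± 0.26 (adjusted p = 0.351, 0.356 and 0.356, limma). PAPSS2 stood at 7.66 and 7.66 in LPS replicates 1 and 2 and between 6.62 and 6.79 in the other LPS arrays, against 6.09 to 6.71 in control. Without LPS replicates 1 and 2 PAPSS2 differed by 0.25 and HSD17B2 by 0.38. In LPS+RSV against control they were CYB5R3, a cytochrome b5 reductase gene, at 0.25 ± 0.10, NFE2L2 at -0.27 ± 0.12 and the acetyltransferase gene NAT1 at -0.18 ± 0.08 (adjusted p = 0.464 for each, limma). LPS+RSV replicate 1 held the highest CYB5R3 value, 9.36, and the lowest NFE2L2 value, 7.19, and without it these differences were 0.16 and -0.14. The glutathione genes GSS, for glutathione synthetase, and GSR, for glutathione reductase, differed by 0.04 ± 0.08 and -0.03 ± 0.09 in LPS+RSV against LPS, and by 0.06 ± 0.08 and 0.12 ± 0.09 in LPS against control.

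Of a list of known NRF2 targets, the members GSTA1, GSTA2, GSTA4, GSTM1, GSTM3 and GSTP1 and the membrane-bound GST gene MGST1 were tested. In LPS+RSV against LPS 5 of these 7 were higher and 2 lower, with a median of 0.12. Over all 11804 genes 6147 were higher, with a median of 0.01. MGST1 had the lowest value of the 7 at -0.26 ± 0.11 (adjusted p = 0.232, limma). With the cell cycle score as a covariate GSTA1 and GSTA2 were lower, at -0.27 and -0.28, while GSTA4, GSTM1 and GSTM3 stayed higher. In LPS against control 4 of the 7 were higher and 3 lower, with a median of 0.05, where 6218 of all genes were higher, with a median of 0.01. None of the 7 passed in either comparison (0 genes, limma), where 0.0424% of all genes passed in LPS+RSV against LPS and 0.0254% in LPS against control.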

How the data were processed

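Expression was measured on 15 Affymetrix whole-transcript arrays, from 300 ng of RNA each per the labels' protocols. The deposited values were log2 expression made with RMA (background correction, quantile normalization, probe summary) per the submitters' processing notes; version and genome build were not given in the sources used here. Symbols were those of the platform's annotation and may be outdated; 16098 of 53617 rows had 1 symbol. Each symbol was represented by its brightest row. The filter left 11804 genes. With limma 3.58.1 (R 4.3.3; lmFit, eBayes), 1 mean per group was estimated over all 15 arrays, with Benjamini-Hochberg adjustment over all 11804 genes and a threshold of 0.05. The scripts were tested on simulated data. The number of arrays limits the precision. Of 15 same-numbered pairs of arrays 4 had deviations correlated over 0.1, and the correlations ran from -0.54 to 0.71 with a median of -0.19. Of 60 pairs with unlike numbers 25 were correlated over 0.1, from -0.71 to 0.65 with a median of 0.02. Replicates 2 to 5 of LPS+RSV and control were alike in cell cycle score (0.47, -0.15, -0.40 and -0.88 against 0.45, -0.19, -0.36 and -1.03). Replicate 1 (-0.54 against 0.49) and the LPS arrays did not follow these numbers. The main fit did not pair arrays.

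Members and lists were chosen with earlier results of these data known. The rule named up to 8 members per direction and comparison at an unadjusted p under 0.05, the widest-spread member of each family, members whose groups did not overlap, listed genes of resveratrol conjugation and efflux (0 named here) and up to 3 other pathway genes per comparison. Members and pathway genes named beyond it were chosen after their values were seen. The slope on the cell cycle score was added after the data were seen.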

Additional observations from a re-analysis of the deposited data

Results flagged for a closer look

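Of 60 sets of 5 arrays checked, 20 members in 3 groups, 2 held an array far from the others, where chance flags about 1 in 20 groups. GSTA1 in LPS+RSV replicate 2 stood at 11.74, against 12.24 to 12.43 in the other LPS+RSV arrays. GSTP1 in LPS replicate 1 stood at 11.78, against 11.57 to 11.62 in the other LPS arrays.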

How the results depend on the processing

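The count of members called stayed at 0 under every alternative run for LPS+RSV against control and for LPS against control. For LPS+RSV against LPS it ranged from 0 to 1 when 1 array was left out (GSTM4, without LPS replicate 3 or LPS+RSV replicate 2). The counts at an unadjusted limma p under 0.05 moved more. In LPS against control, 1 became 2 with arrays centred on their median, quantile normalization, array weights or a fit to the 2 groups, 6 with the cell cycle score as covariate, 0 without LPS replicates 1 and 2, and 1 to 3 with 1 array left out. In LPS+RSV against LPS, 3 became 5 with the covariate, 2 with the filter at the 60th percentile, the fit to the 2 groups or the replicate block, 1 without LPS replicates 1 and 2, and 1 to 5 with 1 array left out. In LPS+RSV against control, 0 became 1 with median centring, trended moderation or the replicate block, 2 with quantile normalization, and 0 to 2 with 1 array left out. The replicate block, which pairs the arrays of all 3 groups by number, changed no adjusted call. The LPS arrays did not follow the numbers, so that fit is no test of pairing LPS+RSV with control alone. The slope counts of 7 falling and 3 rising members were 0 and 0 without the 5 arrays of highest score, and 5 to 8 and 2 to 3 with 1 array left out. GSTM4 kept its sign in every alternative, between -0.44 and -0.25 in LPS against control and between 0.31 and 0.54 in LPS+RSV against LPS. Signs turned for GSTA3 in LPS against control (0.03 ± 0.24) with quantile normalization (-0.0045), array weights (-0.0020) and without LPS replicates 1 and 2 (-0.084), and from -0.12 to 0.25 with 1 array left out. They turned for GSTA3 in LPS+RSV against LPS with the covariate (-0.23) and from -0.00099 to 0.27 with 1 array left out, for ALDH2 in LPS against control without LPS replicates 1 and 2 (0.045), and for UGT8 there, from -0.058 to 0.0090 with 1 array left out. The slope of GSTT2 was -0.018 without the 5 arrays. The cause was not tested.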
